A study of Mus musculus with 3 samples.

Results

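The sphingosine-1-phosphate (S1P) genes described here are *S1pr1*, *S1pr2*, *S1pr3*, *S1pr4* and *S1pr5*, which encode the receptors, *Sphk1* and *Sphk2*, which encode the kinases that make S1P, *Spns2*, which encodes an exporter, and *Sgpl1*, which encodes the lyase that degrades it. They were chosen by gene symbol, and all 9 have a row among the 24346 genes of the deposited table. The samples are 3 libraries, S38, S44 and S52, of freshly isolated adult lung endothelial cells (ECs) from wild type C57BL/6J mice, which the methods describe as males aged 6 to 8 weeks that had received an antibody to VE-cadherin in the blood before harvest. The lungs were digested with collagenase and dispase and the ECs purified by FACS for CD31, with CD45 and Podoplanin stained as well. The study set the vessels of the kidney against those of lung, liver and heart, but the other organs and stages were not analysed here, so all values belong to 1 condition. Nothing in the labels says whether the libraries came from separate mice, so the spread between them may be technical.

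S1P is a lysophospholipid that is made inside cells by phosphorylation of sphingosine, itself released from ceramide by ceramidases. It is carried out of ECs by Spns2 and out of platelets and red cells by Mfsd2b, travels in the blood on apolipoprotein M and albumin, and acts on a family of G protein-coupled receptors. In the endothelium, signalling through S1pr1, Gi and Rac1 is known for keeping junctions closed, while S1pr2 couples to G12/13 and RhoA and is known for the opposite action. S1pr4 and S1pr5 are best known from leukocytes and from natural killer (NK) cells, respectively. The lyase, the S1P phosphatases and the lipid phosphate phosphatases remove S1P.

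The levels are FPKM, fragments scaled to gene length and library size, so genes can be compared per length. Sets of 3 values follow the order S38, S44, S52. The table gives no library sizes, and the steps between low values put them at an estimated 37900000, 38800000 and 34000000 fragments. Between 64.6% and 78.4% of the detected genes differed by over 10% in each pair of libraries, so no library repeated another. A gene with a mean of at least 1 FPKM is referred to as detected. This held for 48.3% of all genes, the share to set beside each count of detected genes below. Of the S1P genes, 8 of 9 were detected, against 48.3% of all genes, and 7 of 9 reached 1 FPKM in every library, against 43.9% of all genes. Their median was 6.41 FPKM, with 0.784 FPKM for all genes and 11.2 FPKM for the detected genes. Only 3 libraries of 1 condition were held, so no p-value is given: the smallest two-sided p that sign flips of 3 paired values allow is 0.25. Differences between genes are therefore described by whether their ranges over the libraries overlapped and by the number of libraries that showed the same order.

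*S1pr1* was the highest of the receptors. This gene had 479, 501 and 317 FPKM, with a mean of 432 ± 100.4 FPKM (SD, n = 3), and ranked 250 among all genes, above 99.0% of them. S52 was the lowest library, at 0.662 of S38 and 0.633 of S44, while S38 and S44 differed by 1.05-fold. *S1pr1* lies on chromosome 3 (GRCm38, the mm10 genome) between 115710433 and 115715072, on the minus strand, and its single basic GENCODE M21 transcript has 2 exons and 3046 bases. None of its 2996 windows of read length (51 bases) occurs in a transcript of another gene. Of the FPKM summed over the 5 receptors, *S1pr1* made up 93.6% in S38, 93.4% in S44 and 92.9% in S52. A share this near the whole can move little, whatever the level.

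*S1pr4* came second among the receptors, in each library. It had 25.6, 30.9 and 19.1 FPKM, with a mean of 25.2 ± 5.91 FPKM (SD, n = 3), at rank 3277 and above 86.5% of the genes. Like *S1pr1* it was lowest in S52, and the ratio of *S1pr1* to *S1pr4* was 18.7, 16.2 and 16.6 in the 3 libraries. These values rest on an estimated 2157.3, 2670.9 and 1446.5 fragments. *S1pr4* (chromosome 10, 81497747 to 81500132, minus strand) is a gene of 1 exon with no exonic overlap with another gene, and 28 of its 2336 windows of read length (1.20%) occur in transcripts of other genes.

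Transcripts of leukocytes were measured beside *S1pr4*, because blood cells are its best known site of expression. A gate against CD45, which the study describes for the endothelial fraction of the kidney, would remove such cells. *Ptprc*, which encodes CD45, was at 4.30, 2.06 and 0.434 FPKM, below *S1pr4* in each library and falling over a wider range. Of 4 T cell genes with a row, 1 was detected, with sums of 10.9, 13.7 and 9.78 FPKM, most of it from *Cd247* at 9.93 ± 1.51 FPKM (SD, n = 3), while *Cd3g* was at 0.784 ± 0.805 FPKM and, with *Cd3e*, listed at 0 in S52. All 4 B cell genes were detected, led by *Cd79a* at 6.39 ± 2.88 FPKM and *Cd79b* at 6.22 ± 3.61 FPKM (SD, n = 3), and their sums were 21.9, 15.5 and 7.10 FPKM. Of 6 myeloid genes 3 were detected, with sums of 1054, 785 and 168 FPKM that came almost wholly from *Lyz2*, a gene that alveolar type 2 cells also express, at 1047, 780 and 166 FPKM. The part of leukocyte RNA in the *S1pr4* values was not tested.

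*S1pr3*, a receptor known from both ECs and smooth muscle, was far lower. It had 4.89, 3.10 and 4.71 FPKM, with a mean of 4.23 ± 0.987 FPKM (SD, n = 3). S44 was the low library and the others were close to each other. The summed level of 6 mural genes (pericytes and smooth muscle), all of them detected, was also lowest in S44, at 120.0, 62.0 and 118 FPKM. Most of the sum came from *Acta2*, at 90.3, 46.7 and 79.7 FPKM, and *Myh11* was at 11.5, 4.72 and 10.5 FPKM. The other 4 (*Pdgfrb*, *Cspg4*, *Rgs5* and *Notch3*) were lowest in S44 too but highest in S52, unlike *S1pr3*. Their part in the *S1pr3* values was not tested. *S1pr3* (chromosome 13, 51408639 to 51422797, plus strand) is free of windows shared with other transcripts, although 45 of its 4463 exonic bases overlap a lincRNA gene on the other strand.

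*S1pr2* was detected by its mean but not in every library. It had 2.12, 1.26 and 0.376 FPKM, with a mean of 1.25 ± 0.871 FPKM (SD, n = 3), from an estimated 500.6, 305.1 and 79.7 fragments. Its range of 5.64-fold was the widest of the detected S1P genes, and the mean without S38 was 0.819 FPKM, below the threshold. *Ptprc* and the B cell sum fell in the same order over the libraries, and their part in the *S1pr2* values was not tested. In bulk samples fewer cells of a type and less RNA per cell cannot be told apart. *S1pr2* spans 20962361 to 20976781 of chromosome 9, minus strand, where 68 of its 6344 windows of read length (1.07%) are shared with transcripts of other genes.

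*S1pr5* was at the limit of detection. It was at 0.0675 FPKM in S38, which corresponds to 6 estimated fragments, and was listed at 0 in S44 and S52, where 3 fragments, the upper limit that a count of 0 allows, would be 0.0330 and 0.0377 FPKM. Its 3 libraries therefore lay below every value of the other receptors. NK cell genes were low as well: 2 of 6 were detected, *Gzma* at 5.25, 6.66 and 0.163 FPKM and *Nkg7* at 2.84, 2.56 and 0 FPKM, with sums of 8.15, 9.94 and 0.373 FPKM. *S1pr5* spans 21242912 to 21248443 of the same chromosome, also on the minus strand. The limits for a value of 0 cover counting error only. Of the FPKM summed over the receptors, *S1pr4* made up 5.46% ± 0.405, *S1pr3* 0.971% ± 0.402 and *S1pr2* 0.253% ± 0.153 (SD, n = 3), and *S1pr5* 0.0132% in S38.

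The promoters of *S1pr4* and *S1pr5* are shown because these receptors had opposite levels, the former well above most genes and the latter nearly at 0. The 250 bases before the RefSeq start (GRCm38.p6, 5′ to 3′ on the minus strand) are given with every CG, the dinucleotide that is methylated in mammalian DNA and clusters in CpG islands, in capitals. *S1pr4* is at chr10:81500138-81500387 and *S1pr5* at chr9:21248444-21248693.
S1pr4: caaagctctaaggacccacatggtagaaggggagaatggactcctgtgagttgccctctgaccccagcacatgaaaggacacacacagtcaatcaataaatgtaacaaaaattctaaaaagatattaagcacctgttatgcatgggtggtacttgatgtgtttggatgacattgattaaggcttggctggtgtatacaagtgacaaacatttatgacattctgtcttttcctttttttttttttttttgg
S1pr5: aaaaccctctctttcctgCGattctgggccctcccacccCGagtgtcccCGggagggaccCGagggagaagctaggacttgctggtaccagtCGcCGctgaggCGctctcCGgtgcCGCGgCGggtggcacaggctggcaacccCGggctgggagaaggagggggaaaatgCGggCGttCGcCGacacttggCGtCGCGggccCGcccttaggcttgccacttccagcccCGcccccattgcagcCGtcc
The *S1pr4* promoter holds 0 CGs and has a GC content of 38.8%. The *S1pr5* promoter holds 22 CGs at a GC content of 69.2%, and 14.8% of the 32851 promoters in the table hold as many or more. Over all promoters the median was 6 CGs and a GC content of 52.4%. The other receptor promoters in that table lay between, with 14 CGs for *S1pr2* and 9 for *S1pr3*. *S1pr1*, the highest receptor, had no entry. Of these 4 receptors the 1 with the most CGs had the lowest level and the 1 with 0 CGs the highest, which is a description of 4 genes. The other S1P genes did not all follow that order. *Sgpl1* held 31 CGs and *Sphk2* 20 and 27, both with means above those of *S1pr2* and *S1pr3*, while *Sphk1* held 4 to 19 over its starts. For *Spns2* the 250 bases (chr11:72475028-72475277) held 2 CGs but lie inside the GENCODE gene. That gene is on the minus strand and begins at 72489904. The count of 2 may therefore not belong to the promoter of the *Spns2* transcript described here.

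**Figure D1:**
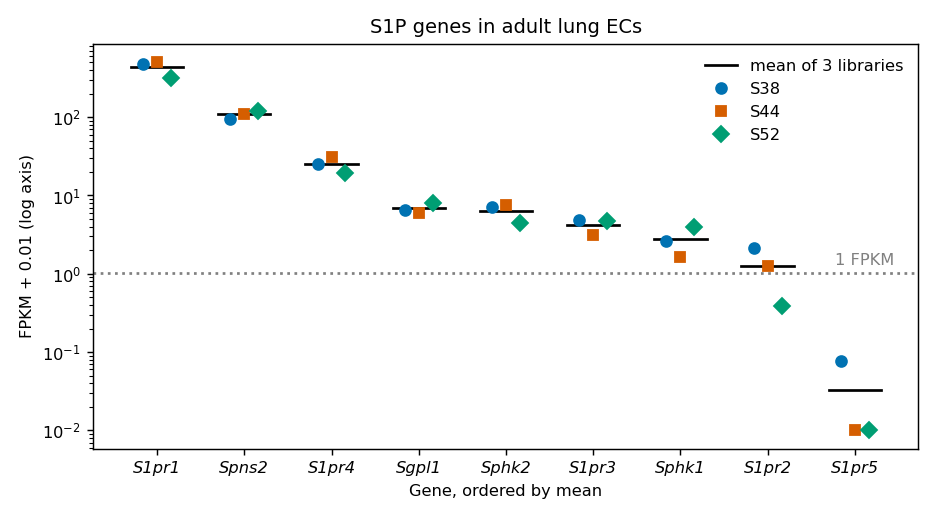
FPKM of the 9 S1P genes in each of the 3 libraries (coloured points) with the mean (black line), on a log axis of FPKM + 0.01, ordered by mean. *S1pr1*, *Spns2* and *S1pr4* stand apart from the rest with no overlap, the next genes overlap their neighbours, and *S1pr5* sits at 0.0675 FPKM in S38 and at 0 in the other libraries.

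The kinases were expressed at a low level, below the median of the detected genes. *Sphk2*, the kinase known from the nucleus and mitochondria, had 7.09, 7.66 and 4.48 FPKM, with a mean of 6.41 ± 1.69 FPKM (SD, n = 3). *Sphk1*, the cytoplasmic kinase that moves to the plasma membrane, had 2.63, 1.64 and 3.92 FPKM, with a mean of 2.73 ± 1.15 FPKM (SD, n = 3). *Sphk2* was the higher kinase in each library and the ranges did not overlap, but by ratios of 2.70, 4.68 and 1.14, so the kinases were nearly level in S52. They moved in opposite directions there, with *Sphk2* lowest and *Sphk1* highest in that library. The highest and lowest *Sphk1* values differed by 2.40-fold, and by 1.49-fold without S44. *Sphk1* was lowest in S44, as was the sum of the mural genes given above, and their part was not tested.

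The *Sphk2* value carries a limit of its own. *Sphk2* (chromosome 7, 45709467 to 45718002, minus strand) overlaps *Dbp*, which encodes a circadian transcription factor, by 539 exonic bases and *Rpl18*, a ribosomal protein gene, by 373 exonic bases, both on the other strand, out of 4159. The libraries were not stranded, so reads from these stretches cannot be assigned by strand, and 766 of 3498 windows of read length (21.9%) are shared with 2 other genes, 491 of them with *Dbp*. *Dbp* was low, at 2.02, 3.07 and 2.13 FPKM. *Rpl18* was at 499, 632 and 833 FPKM, highest in S52, where *Sphk2* was lowest. How the authors' tool divided such reads is not given in the sources used here. *Sphk1* (chromosome 11, 116530925 to 116536674, plus strand) overlaps an antisense gene by 192 of 4774 exonic bases.

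*Spns2*, the exporter, was the second highest of the S1P genes. It had 96.0, 110.5 and 120.0 FPKM, with a mean of 109 ± 12.1 FPKM (SD, n = 3), at rank 813 and above 96.7% of the genes. The highest library was 1.25-fold above the lowest, the smallest range of the detected S1P genes over all 3 libraries. Without S52 its range was 1.15-fold and those of *S1pr1*, *Sphk2* and *Sgpl1* were smaller, and without S44 those of *S1pr3* and *Sgpl1* were smaller. The ratio of *S1pr1* to *Spns2* was accordingly 4.98 and 4.53 in S38 and S44 and 2.64 in S52. *Spns2* (chromosome 11, 72451638 to 72489904, minus strand) shares 131 of its 4083 exonic bases with *Mybbp1a* on the other strand, which was at 19.4, 22.8 and 26.0 FPKM.

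*Mfsd2b*, the exporter of platelets and red cells, varied far more between the libraries than *Spns2*. It had 27.7, 24.7 and 0.871 FPKM, a range of 31.7-fold. All 6 platelet genes were detected and lowest in S52, with sums of 1783, 1413 and 41.2 FPKM, *Ppbp* at 1054, 778 and 15.97 FPKM and *Pf4* at 329, 284 and 3.76 FPKM. Erythroid genes, of which 3 of 5 were detected, had sums of 337, 469 and 94.5 FPKM, with *Hbb-bs* at 185, 308 and 0.00319 FPKM and *Hba-a1* at 147, 147 and 91.0 FPKM. The *Hbb-bs* value in S52 is below 0.0142 FPKM, the floor of *S1pr2* in that library, and cannot be read as a level. How reads shared between globin genes were divided is not known, so the S52 sum is a poor measure of red cell RNA. The part of platelet and red cell RNA in the *Mfsd2b* values was not tested. Among the related genes, *Spns1*, a lysosomal lipid transporter, was at 14.1 ± 2.56 FPKM and *Spns3* at 0.00514 ± 0.00891 FPKM (SD, n = 3). The ABC transporters for which S1P export has been described were *Abcg2* at 43.3 ± 1.13 FPKM, *Abcc1* at 6.64 ± 0.392 FPKM and *Abca1* at 3.83 ± 0.585 FPKM (SD, n = 3). *Apom*, which encodes the main plasma carrier of S1P, was at 0.141, 0.372 and 1.64 FPKM and *Alb*, which encodes albumin, at 0.244 ± 0.283 FPKM (SD, n = 3). Of the 8 transporters and carriers 5 (62.5%) were detected, not far from the 48.3% of all genes.

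*Sgpl1*, the enzyme of irreversible S1P breakdown, had 6.59, 5.98 and 8.05 FPKM, with a mean of 6.87 ± 1.06 FPKM (SD, n = 3). Its level was close to that of *Sphk2* and well below that of the exporter, with a ratio of *Spns2* to *Sgpl1* of 14.6, 18.5 and 14.9. *Sgpl1* spans 61098642 to 61147703 of chromosome 10, minus strand, its longest basic transcript has 15 exons, and none of its windows of read length is shared with another gene. All 5 genes of the S1P removal list were detected, against 48.3% of all genes. The lipid phosphate phosphatases, which act at the cell surface on S1P and lysophosphatidic acid (LPA), included the 2 highest of them: *Ppap2a* (*Plpp1*) was at 348 ± 43.5 FPKM and *Ppap2b* (*Plpp3*) at 66.4 ± 3.67 FPKM (SD, n = 3). *Ppap2c* (*Plpp2*), of the same family, was at 2.72 ± 0.935 FPKM (SD, n = 3). The intracellular S1P phosphatases were low, with *Sgpp1* at 7.51 ± 1.46 FPKM (SD, n = 3) and *Sgpp2* at 2.86, 1.53 and 0.727 FPKM.

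In the order of the means, *S1pr1*, *Spns2* and *S1pr4* each lay above the next gene without overlap in all 3 libraries. The lowest *S1pr1* value, 317 FPKM, was above the highest *Spns2* value, 120.0 FPKM, and the lowest *S1pr4* value, 19.1 FPKM, above the highest *Sgpl1* value, 8.05 FPKM. *Sgpl1* and *Sphk2* did not differ beyond their spread, and *Sgpl1* was the higher in 1 of 3 libraries. *Sphk2* was above *S1pr3* in 2 libraries, with overlapping ranges. *S1pr3* was above *Sphk1*, and *Sphk1* above *S1pr2*, in all 3 libraries, but with ranges that overlapped. *S1pr5* was below *S1pr2* without overlap.

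**Figure D2:**
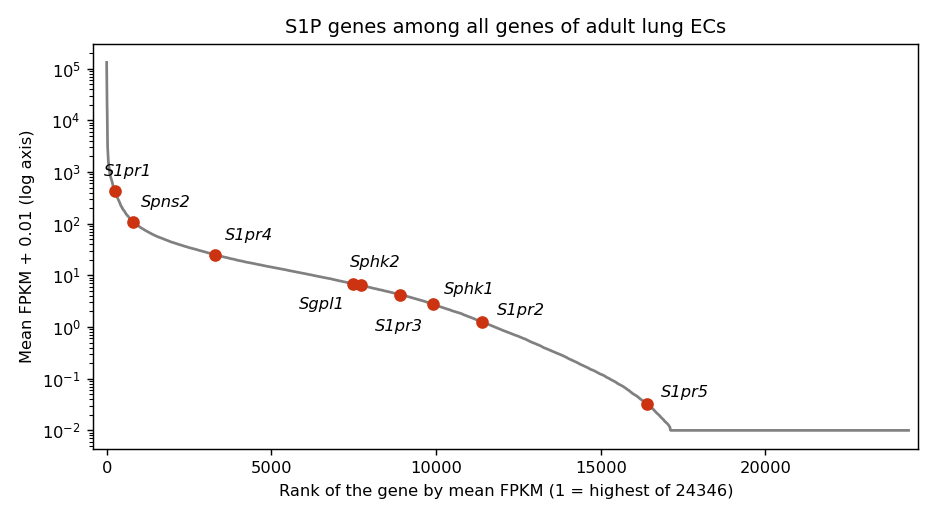
Mean FPKM + 0.01 (log axis) of all 24346 genes against their rank (grey line), with the 9 S1P genes as red points. *S1pr1* at rank 250 and *Spns2* at rank 813 lie at the top, the enzymes lie between ranks 7495 and 9921, and *S1pr5* lies at rank 16394.

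The S1P genes did not vary together between the libraries. Of the 8 detected genes, *S1pr1*, *S1pr2*, *S1pr4* and *Sphk2* were lower in S52 than in both other libraries, as were 46.3% of all detected genes, and *Sphk1*, *Spns2* and *Sgpl1* were higher, as were 33.9%. *S1pr3* lay between. These positions were kept with libraries rescaled to equal sums or by the median ratio of their genes, except that *Sgpl1* lay between the others on the former scale and *S1pr3* above both on the latter. A range over 2-fold was seen for *S1pr2* and *Sphk1*, 2 of 8 genes, against 20.1% of the detected genes. Without S44 only *S1pr2* was over 2-fold, and without S52 none was, with 1.68-fold for *S1pr2*. The median range was 1.60-fold for the detected S1P genes and 1.40-fold for all detected genes. Ranges also shrank without S52 for *S1pr1*, to 1.05-fold, and *Sphk2*, to 1.08-fold, and without S44 for *S1pr3*, to 1.04-fold.

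**Figure D3:**
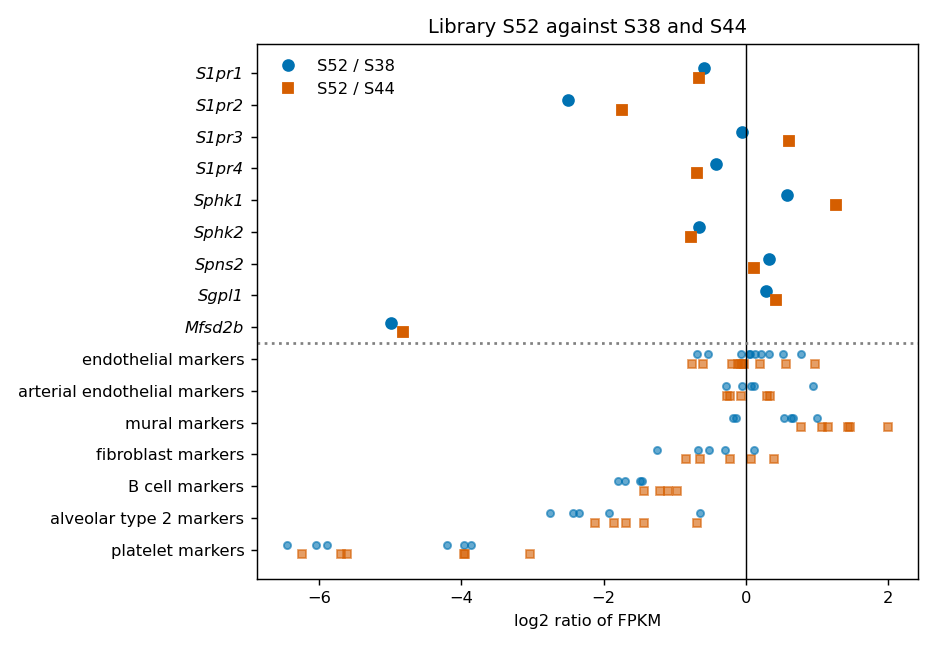
log2 ratio of FPKM in S52 to S38 (circles) and to S44 (squares) for the 8 detected S1P genes and *Mfsd2b* (above the dotted line), and for each detected gene of 7 marker lists (below it). The S1P genes lie on both sides of 0 with *S1pr2* the lowest, and *Mfsd2b* lies within the range of the platelet markers.

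The sorted cells carried the markers of their label. All 10 endothelial genes were detected, with sums of 6369, 7058 and 6291 FPKM, *Cldn5* at 1416 ± 357 FPKM and *Pecam1* at 1168 ± 45.5 FPKM (SD, n = 3). All 5 arterial genes, led by *Efnb2* and *Gja4*, and all 4 venous genes, led by *Vwf* and *Ephb4*, were detected, with sums of 248 to 299 and of 318 to 459.5 FPKM. Of 6 lymphatic genes 5 were detected, with sums of 414 to 651 FPKM that came mostly from *Lyve1*, next to *Flt4* at 22.4 ± 2.28 FPKM (SD, n = 3), while *Prox1*, the defining factor of lymphatic ECs, stayed between 0.132 and 0.598 FPKM. Of these 6 genes 4 were lowest in S52, as were 46.3% of all detected genes. Among these 4, *Mmrn1* was at 19.4, 17.6 and 0.236 FPKM and *Ccl21a* at 9.41, 10.3 and 0 FPKM. The other 2 of the 6 were highest in S52, as were 33.9% of all detected genes. These were *Prox1*, at 0.132, 0.173 and 0.598 FPKM, and *Pdpn*, at 2.39, 1.84 and 3.09 FPKM. The range of *Mmrn1* was 82.1-fold and those of the 6 platelet genes 14.6- to 87.4-fold, and the part of platelets in its values was not tested. Lymphatic ECs are a known source of S1P through Spns2, and their part in the *Spns2* values was not tested. Epithelial RNA was present, with sums of 3756, 3156 and 759.8 FPKM for 5 alveolar type 2 genes (*Sftpc* and *Sftpb* the highest) and of 2779.6, 2316 and 401 FPKM for 5 airway genes (*Scgb1a1* and *Scgb3a2* the highest), all detected. The 5 fibroblast genes, led by *Dcn* and *Col1a2*, were all detected, with sums of 82.6, 65.3 and 47.9 FPKM. S52 was lowest for the alveolar type 2, airway and fibroblast sums, as it was for *S1pr1*, *S1pr2*, *S1pr4* and *Sphk2*, and the part of these cells was not tested.

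Of 70 further genes of the pathway in 9 lists, 55 (78.6%) were detected, against 48.3% of all genes. The median over all 70, detected or not, was 23.3 FPKM, with 0.784 FPKM for all genes. The LPA receptors are the closest relatives of the S1P receptors by ligand, and 1 of 6 was detected, against 48.3% of all genes. At a threshold of 0.1 FPKM the number was 5 of 6. *Lpar6* was at 22.3, 27.0 and 19.5 FPKM, a level like that of *S1pr4* and with the same order of libraries. *Lpar1* was at 0.990 ± 0.632 FPKM and *Lpar3* at 0.349 ± 0.533 FPKM (SD, n = 3), and without S44 or without S52 *Lpar1* reached the threshold.

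All 8 G protein alpha subunits were detected, against 48.3% of all genes. *Gnas*, which encodes Gs, was at 577 ± 47.0 FPKM, and *Gnai2*, which encodes a subunit of Gi, through which S1pr1 signals, at 543 ± 66.3 FPKM (SD, n = 3). The other Gi genes were *Gnai3*, at 64.4 ± 3.50 FPKM, and *Gnai1*, at 5.83 ± 0.389 FPKM (SD, n = 3). *Gna13*, which encodes a partner of S1pr2, was at 69.4 ± 15.97 FPKM (SD, n = 3), 51.6 FPKM in S38 and 82.5 FPKM in S52. Of the 8 subunits, 6 were higher in S52 than in both other libraries, as were 33.9% of all detected genes. *Gnai2* and *Gna13* were among these 6, while *S1pr1* and *S1pr2* were lowest in S52. A link between them was not tested.

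Of 11 genes of receptor signalling and regulation 10 were detected, against 48.3% of all genes. The GTPase genes *Rhoa*, at 445 ± 31.5 FPKM, *Rac1*, at 367 ± 43.5 FPKM, and *Cdc42*, at 278 ± 23.2 FPKM (SD, n = 3), were the highest. *Klf2*, the flow-responsive factor known to raise *S1pr1* transcription, was at 236, 198 and 164 FPKM. It was lowest in S52, as were *S1pr1* and 46.3% of all detected genes, but its highest value was not in S44. The part of *Klf2* in the *S1pr1* values was not tested. *Cd69*, which encodes a leukocyte protein that removes S1pr1 from the surface, was at 1.91, 0.930 and 0.0402 FPKM.

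The ceramidases, which release the sphingosine from which S1P is made, held a further highly expressed gene. *Acer2*, the alkaline ceramidase of the Golgi, had 281, 325 and 329 FPKM, with a mean of 312 ± 26.7 FPKM (SD, n = 3), far above the kinases in each library. *Asah1*, the lysosomal acid ceramidase, was at 67.4 ± 10.6 FPKM and *Acer3* at 24.3 ± 1.07 FPKM (SD, n = 3). *Asah2* was at 5.42 ± 2.44 FPKM (SD, n = 3), and *Acer1*, the member known from skin, was at most 0.147 FPKM. Of the 5 ceramidases 4 were thus detected, against 48.3% of all genes.

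De novo synthesis of ceramide was represented by 10 of 14 genes (71.4%), against 48.3% of all genes detected. *Degs1*, the desaturase of the last step, was at 111 ± 3.61 FPKM, *Cers2*, the ceramide synthase of very long acyl chains, at 98.0 ± 4.13 FPKM and *Sptssa*, a small subunit of serine palmitoyltransferase, at 65.3 ± 5.79 FPKM (SD, n = 3). *Cers1*, *Cers3*, *Sptlc3* and *Sptssb* were below 1 FPKM in each library. All 4 regulators of serine palmitoyltransferase were detected, with *Rtn4*, which encodes Nogo, at 73.9 ± 11.4 FPKM and *Ormdl2* at 21.8 ± 1.58 FPKM (SD, n = 3), while *Ormdl3* was at 34.2, 31.9 and 15.1 FPKM. Of the 9 genes that make or cleave other ceramide products 8 were detected, the highest being *Sgms1*, at 38.1 ± 7.35 FPKM, *Cerk*, at 24.6 ± 3.15 FPKM, and *Ugcg*, at 24.1 ± 1.59 FPKM (SD, n = 3). Over all lists, 8 of the 55 detected genes (14.5%) had a range over 2-fold, against 20.1% of all detected genes.

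**Figure D4:**
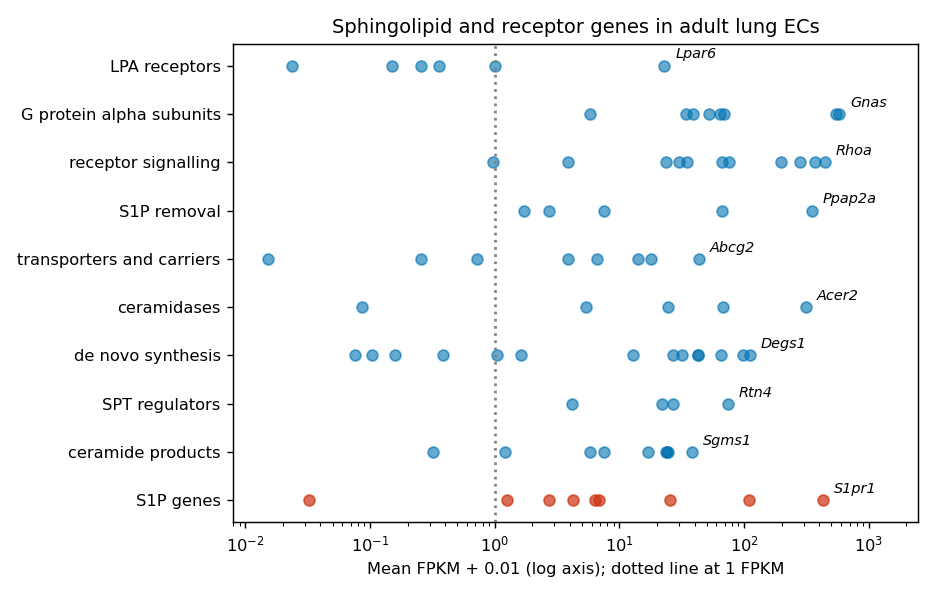
Mean FPKM + 0.01 over the 3 libraries (log axis) of the genes in 9 lists around the S1P pathway (blue) and of the 9 S1P genes (red), with the highest gene of each row named and a dotted line at 1 FPKM. *Ppap2a* at 348 FPKM, *Acer2* at 312 FPKM and *S1pr1* at 432 FPKM are the highest of their rows, and 5 of 6 LPA receptors have a mean below 1 FPKM.

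The genes with values closest to those of *S1pr1* were found by the Euclidean distance of log2(FPKM + 1) over the 3 libraries, to which both level and change contribute. They were *Inmt* (distance 0.227), at 453, 446 and 348 FPKM, followed by *Tcn2* (0.2495), *Clu* (0.270), *Calr* (0.361) and *Ctsd* (0.370). All were lowest in S52, which follows in part from their choice by these same values. The nearest genes to *Spns2* were *Dctn2* (0.00973), *Slc50a1* (0.0602) and *Arpc1b* (0.0623), and those to *Sphk1* were *Txnrd3* (0.0633), *Fgf11* (0.140) and *Hgh1* (0.159). With 3 libraries such a likeness is a description of levels only.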

How the data were processed

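Bulk RNA-seq of 3 libraries of 1 group was used. Per the labels, poly-A selected, non-stranded libraries gave paired reads of 51 bp, and the submitters' processing notes list bcl2fastq 2.17, FastQC 0.11.5, Trimmomatic 0.36, TopHat2 2.1.0 and Cufflinks 2.2.1 with mm10, in no stated role. The deposited values are FPKM, 1 per gene symbol and library. The annotation behind them is not given in the sources used here, and the paper's methods describe STAR and HTSeq counts. Multi-mapped reads and the gene length used can shift FPKM. The columns of the 3 libraries were used, as deposited.

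Values were read with Python 3.11.15 and pandas 2.3.3. Means, SDs and ratios used FPKM without a pseudocount, and likeness used log2(FPKM + 1). No count model and no test was run. Depth was estimated from 7077 genes with 1 transcript of 800 to 4000 bp, an approach chosen after values were seen. Low values came within 0.15 of whole fragments in 74.0% to 80.2% of cases. On simulated whole fragments, at depths placed off the steps of the search, the error was at most 0.0999%. That error was set by the steps, so it does not measure the error of the depths estimated for the real libraries. Floors use 3 fragments. Positions and transcripts are from GENCODE M21 (GRCm38), and promoters from RefSeq (GRCm38.p6), where 8 of 9 genes and 4 of 5 receptors matched. Grk2, Plpp1, Plpp2 and Plpp3 were read under older symbols, and 1 T cell marker had no row.

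The members, 9 pathway lists and 14 marker lists were chosen with earlier results of these data known. Named genes were the members, the 3 highest of each pathway list and others of those lists, the 2 highest of each marker list, and the genes most alike. *Prox1*, *Pdpn*, *Mmrn1*, *Ccl21a*, *Cd3e*, 4 mural genes and the genes overlapping members were added after their values were seen.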

Additional observations from a re-analysis of the deposited data

How the results depend on the processing

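Rescaling each library to a sum of 1000000 shifted the median detected gene by -0.19 in S38, -0.61 in S44 and -0.45 in S52 (log2), and moved the mean to 317 rescaled FPKM for *S1pr1*, 3.16 for *S1pr3*, 18.3 for *S1pr4*, 4.69 for *Sphk2*, 78.9 for *Spns2* and 5.04 for *Sgpl1*, and the median of the S1P genes to 4.69. The order of the 9 means stayed under both rescalings, and without S52 *Sphk2* and *Sgpl1* changed places. A threshold of 10 FPKM left 3 S1P genes detected, and the number was 7 after rescaling to the sum, 8 by median ratio and 7 to 8 with a library left out. With FPKM + 1 the number over 2-fold was 1, after rescaling to the sum it was 3 (with *S1pr3* at 2.20-fold), and with a library left out it was 0 to 2. Leaving out a library gave means of 398 to 489.6 FPKM for *S1pr1*, 0.819 to 1.69 for *S1pr2*, 0 to 0.0338 for *S1pr5*, 2.13 to 3.28 for *Sphk1* and 103 to 115 for *Spns2*. Rescaling by median ratio moved no mean by more than its SD. The number of pathway genes detected ranged from 41 at 10 FPKM to 65 at 0.1 FPKM, and the 5 genes nearest to *S1pr1* were the same with a pseudocount of 0.1. No paired analysis was possible because all libraries belong to 1 group. Groups of 3 are too small for a search for outlying samples, and depth limits *S1pr5*, whose only value above 0 rests on 6 estimated fragments.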
